A study of Mus musculus with 8 samples.

Results

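The 200 brightest circular RNA (circRNA) probes of normal mouse myocardium were taken from 14236 circRNA probes on an Arraystar mouse circRNA array. They were the probes with the highest mean log2 signal over the 3 arrays of normal myocardium (NPRA+/+, samples 228, 230 and 242) in the authors' deposited log2 table. The 5 arrays of NPRA-deficient myocardium (NPRA-/-, samples 217, 227, 231, 240 and 241) had no part in the choice. Because the NPRA+/+ signal chose the members, their high NPRA+/+ level is a description, and a tilt towards lower values in NPRA-/- follows in part from the choice.

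CircRNAs are closed RNA loops made when the spliceosome joins the end of a downstream exon back to the start of an upstream one. They have no free ends, which shields them from exonucleases, so they can build up in long-lived cells such as cardiomyocytes. Arrays of this kind place each probe over the back-splice junction, the sequence that the linear RNA of the same gene does not have. The brightness of a probe reflects its sequence and labelling as well as the amount of RNA, so the order given here is an order of probes and not of molecule numbers. NPRA is natriuretic peptide receptor A, a membrane guanylyl cyclase that makes cyclic GMP when atrial or brain natriuretic peptide binds it. In the heart it is known to restrain growth of cardiomyocytes and fibrosis.

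All mice were on the C57BL/6 background, and NPRA-/- denotes a deficiency restricted to the heart. The sources used here give neither the driver of that deficiency nor the age of the mice, nor is it stated whether each sample is a different animal. P-values therefore reflect only the variation among these samples, which may be technical. Tissue was held in RNAlater and frozen, and each total RNA was labelled with Cy3 and hybridised to 1 array. Neither the tissue nor the loss of NPRA could be checked against marker genes, because the probes are not paired with genes in the files used here; for the same reason members are given by probe ID, without host gene or sequence. In bulk tissue, fewer cells of a type and less circRNA per cell cannot be told apart.

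No spot was saturated on any array, and the median local background was 14 on 7 arrays and 13 on sample 240, which came from a separate scan. The barcode in each array's header is a pair of numbers, read here as slide row and slide column. By that reading, samples 217, 227, 231 and 240 lay in the slide row that held NPRA-/- only. Sample 241 lay in the row that held all NPRA+/+ samples. The sources used here do not give the slide of each array, so whether these rows belong to the same slide is not known. Sample 241 carried 1 probe far out of its place. ASCRP4009374, not a member, read 509951 in processed signal there against 71.9 to 101 on the other 7 arrays, and the scanner marked that spot as non-uniform. It made up 11.04% of that array's processed circRNA signal. The deposited table nevertheless holds it as the brightest circRNA probe of sample 241, so results on that array's total are given with and without it.

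The members covered a wide range of signal. In the deposited table their NPRA+/+ means ran from 18.09 for ASCRP4006710 down to 11.30 for ASCRP4012520, whereas the median of all circRNA probes was 5.84 to 5.86 on every array. Ranks 1 to 10 held means from 16.10 to 18.09, ranks 11 to 50 from 13.22 to 15.64, ranks 51 to 100 from 12.22 to 13.19, and ranks 101 to 200 from 11.30 to 12.20. The signal therefore fell steeply over the first 10 ranks and slowly over the last 100. All 200 were well above background on all 8 arrays, and none was marked or saturated. Their median raw brightness was 274 to 418 times the local background, against 4.04 to 4.55 times for all circRNA probes.

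The limit at rank 200 fell on a shallow slope. Just inside it were ASCRP4013392 (11.33), ASCRP4011638 (11.32) and ASCRP4012520 (11.30), and just outside were ASCRP4012871 (11.30), ASCRP4002285 (11.29) and ASCRP4007820 (11.29). These 6 probes lay closer together than the NPRA+/+ arrays of a single one of them, ASCRP4013392, which spanned 10.98 to 11.65.

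At the head of the order, ASCRP4006710 had a processed signal of 214484, 283809, 199263, 221597 and 207974 on NPRA-/- samples 217, 227, 231, 240 and 241. On NPRA+/+ samples 228, 230 and 242 it read 285679, 284508 and 243980. The genotypes overlapped, since sample 227 lay above sample 242. Relative to the 75th percentile of each array, its log2 signal averaged 10.99 ± 0.24 (SD, n = 5) across NPRA-/- arrays and 11.28 ± 0.09 (SD, n = 3) across NPRA+/+ arrays, which gave -0.29 as the difference (SE 0.14, limma adjusted p = 0.233). In the deposited table it ranked first on 7 arrays and at 3 on sample 241, where ASCRP4009374 and ASCRP4006342 stood above it. In the processed signal of sample 241, ASCRP4006342 read 203024 and so lay below it.

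The probes that followed kept their places almost as closely. By deposited signal, ASCRP4006342 ranked 2 on all 8 arrays. ASCRP4012684 ranked 3 on all NPRA+/+ arrays and 3 to 5 on NPRA-/- arrays, ASCRP4013042 stayed within ranks 4 to 6, and ASCRP4004008 within 3 to 5. ASCRP4011502, ASCRP4004672 and ASCRP4007626 stayed within ranks 6 to 10, and ASCRP4005042 within 7 to 11. ASCRP4008132 moved most among the first 10: its relative log2 signal was 8.29, 9.24, 8.13, 8.33 and 8.25 on samples 217, 227, 231, 240 and 241, against 9.56, 9.98 and 9.06 on samples 228, 230 and 242. Sample 227 lay within the NPRA+/+ range and the other 4 NPRA-/- arrays below it, a difference of -1.09 (SE 0.29, limma adjusted p = 0.0797).

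The 200 members carried more than 50% of all circRNA signal on every array. In the processed signal their share was 65.1, 66.5 and 64.3% on NPRA+/+ samples 228, 230 and 242. On NPRA-/- samples 217, 227, 231, 240 and 241 it was 57.9, 64.5, 55.9, 63.0 and 51.3%. With the spots that the scanner marked left out, sample 241 rose to 57.6%. The 5 NPRA-/- arrays then averaged 59.8% ± 3.75 (SD, n = 5), and the 3 NPRA+/+ arrays averaged 65.5% ± 1.17 (SD, n = 3). Samples 227 and 240 lay near the NPRA+/+ arrays, and samples 217, 231 and 241 lay lower. No test is given for this share, because the NPRA+/+ arrays chose the members.

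Most of that spread came from below the first 10 ranks. With marked spots left out, the 10 brightest members held 29.6, 31.3, 28.6, 32.0 and 28.8% on samples 217, 227, 231, 240 and 241 and 29.1, 30.5 and 32.7% on samples 228, 230 and 242, so the genotypes overlapped. Members 11 to 200 held 28.3, 33.3, 27.3, 31.1 and 28.8% in NPRA-/- and 36.3, 36.2 and 31.7% in NPRA+/+. Sample 227 lay above sample 242 there. ASCRP4006710 alone held 5.03 to 5.90% of an array's processed signal with marked spots left out. With those spots kept, the range was 4.50 to 5.89%. The 4.50% belonged to sample 241, which stood at 5.06% with marked spots left out.

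The deposited table showed little of this. Its columns have nearly the same value at the same rank: the maximum was 18.09 on every array, and the 200 brightest probes of each array held 59.3 to 60.1% of its total whichever probes they were. The members' share in it averaged 57.7% ± 2.87 (SD, n = 5) over NPRA-/- arrays and 59.7% ± 0.151 (SD, n = 3) over NPRA+/+ arrays. Sample 241, at 52.7%, was set apart there by ASCRP4009374, which took 5.87% of its total; without that probe the share on sample 241 was 56.02%.

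A share that does not use the NPRA+/+ choice is that of each array's own 200 brightest probes. In the deposited table it differed by -0.28 percentage points (NPRA-/- minus NPRA+/+, 2-sided exact permutation p = 0.232), a difference that its equal columns hold small. In the processed signal it was 61.4% ± 3.27 (SD, n = 5) and 65.5% ± 1.13 (SD, n = 3), a difference of -4.06 points (exact permutation p = 0.107), and -5.08 points with marked spots left out (exact permutation p = 0.0536). The smallest p that the 56 splits can give is 0.0179. Over the 12 forms of this comparison (4 sets of values, the own 100, 200 and 400 brightest), the lowest exact permutation p was 0.0357, and 0.184 after Benjamini-Hochberg adjustment. None passed the threshold after adjustment.

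Most members kept a place near the top on every array. Of the 200 members, 172, 187, 171, 185 and 173 were among the 200 brightest circRNA probes of samples 217, 227, 231, 240 and 241. On samples 228, 230 and 242, which chose them, the counts were 191, 192 and 186. Sample 227 kept 1 more member than NPRA+/+ sample 242, and samples 217, 231 and 241 lost 27 to 29. A total of 153 members were within the first 200 on all 8 arrays, and 4 were outside it on all 5 NPRA-/- arrays.

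The NPRA+/+ counts were also read on arrays left out of the choice. When the 200 brightest probes were chosen from 2 NPRA+/+ arrays at a time, the NPRA+/+ array left out kept 187 (sample 228), 187 (sample 230) and 180 (sample 242). NPRA-/- arrays kept 168 to 189 of the same sets, a range that overlapped with the arrays left out.

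The members' order along the 200 was kept to different degrees. Spearman's rho between an array's signal and the NPRA+/+ mean, across the 200 members, was 0.764, 0.944, 0.742, 0.919 and 0.784 on samples 217, 227, 231, 240 and 241. It was 0.968, 0.944 and 0.930 on samples 228, 230 and 242 when each was left out of the choice. Samples 227 and 240 were again the NPRA-/- arrays nearest to normal. These values are across probes of the same arrays, which are not independent replicates.

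A few members fell far down the order on NPRA-/- arrays. The lowest rank that any member reached was 8319, 329, 2185, 737 and 1860 on samples 217, 227, 231, 240 and 241, against 249, 275 and 276 on samples 228, 230 and 242, or 270, 275 and 373 when each was left out of the choice. Counts beyond rank 400 were 9, 0, 8, 4 and 8 in NPRA-/- and 0 on each NPRA+/+ array. The places they left were taken by probes from just below the limit and beyond: 178 members were also among the 200 highest by NPRA-/- mean, and 22 other probes entered. ASCRP4004824, at rank 208 by NPRA+/+ mean, entered at 81; its deposited log2 signal was 12.92, 11.92, 12.88, 11.99 and 12.82 on samples 217, 227, 231, 240 and 241 and 11.32, 11.10 and 11.34 on samples 228, 230 and 242, so all NPRA-/- arrays lay above all NPRA+/+ arrays.

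Each NPRA-/- array was next set against the NPRA+/+ mean. On the scale relative to the 75th percentile, the median difference of the members was -0.33, -0.04, -0.55, -0.15 and -0.32 (log2) on samples 217, 227, 231, 240 and 241. The same median over all probes tested was 0.08, 0.02, 0.05, 0.01 and 0.07. An NPRA+/+ array against the mean of the other NPRA+/+ arrays gave 0.11 (sample 228), 0.11 (sample 230) and -0.25 (sample 242). Sample 242 thus lay farther below its own group than samples 227 and 240 did below NPRA+/+, and samples 217, 231 and 241 lay lower still.

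This direction depended on the scaling. In the deposited table, whose columns have nearly equal values at equal ranks, the same medians were 0.10, 0.02, 0.02, 0.05 and 0.03 on the NPRA-/- arrays. There, 118, 106, 103, 123 and 107 of the 200 members lay above the NPRA+/+ mean on samples 217, 227, 231, 240 and 241, against 35, 77, 16, 43 and 43 on the 75th percentile scale. Over all probes tested the deposited medians were 0.05, 0.02, 0.04, 0.04 and 0.04 on these samples. Equal columns hold a shift shared by the brightest probes small, so the deposited table cannot decide for or against one. The direction of the members as a whole was therefore not settled by these data. Each member named below as higher or lower kept its direction on both scales.

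Differences past 1.5-fold were more often downward than upward, on the NPRA-/- arrays and on 1 NPRA+/+ array. Relative to the 75th percentile, 70 members of sample 217 were at least 1.5-fold below the NPRA+/+ mean (14.2% of all probes tested were) and 2 at least 1.5-fold above it (12.8% of all). Sample 227 had 12 below (4.22% of all) and 3 above (2.98% of all). Sample 231 had 93 below (12.3% of all) and 5 above (12.4% of all), sample 240 had 26 below (8.28% of all) and 0 above (1.6% of all), and sample 241 had 60 below (10.7% of all) and 2 above (10% of all). Sample 227 came nearest to the share over all probes. NPRA+/+ sample 242, set against the other NPRA+/+ arrays, had 37 below (4.1% of all) and 0 above (1.99% of all), more below than samples 227 and 240. When it was left out of the choice of members, it had 42 below and 0 above, so a downward tilt was also measured in a normal array.

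The counts below the NPRA+/+ mean were smaller in the deposited table. Sample 217 had 41 below (7.52% of all probes tested) and 16 above (5.42% of all), and sample 227 had 9 below (1.64% of all) and 3 above (0.922% of all). Sample 231 had 36 below (6.12% of all) and 14 above (5.75% of all), sample 240 had 21 below (2.76% of all) and 2 above (0.307% of all), and sample 241 had 30 below (5.16% of all) and 6 above (3.83% of all).

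The downward differences were not even along the order. Members 11 to 50 had the lowest median in samples 217, 231 and 241, at -0.74, -0.88 and -0.66, and members 101 to 200 the highest, at -0.11, -0.31 and -0.07. The first 10 lay between, at -0.47, -0.59 and -0.46. NPRA+/+ sample 242, set against the other NPRA+/+ arrays, had a like pattern below the first 10, at -0.38 for ranks 11 to 50, -0.32 for ranks 51 to 100 and -0.21 for ranks 101 to 200. In samples 227 and 240 the medians of members 51 to 100, -0.12 and -0.24, were the lowest of the 4 bands. Probes at ranks 201 to 400, which are no members, had medians of -0.08, -0.02, -0.19, -0.02 and -0.02 on samples 217, 227, 231, 240 and 241.

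The choice of members by NPRA+/+ signal could itself produce lower NPRA-/- values, so the NPRA-/- mean was also compared with an NPRA+/+ array that had not chosen the probes. On the 75th percentile scale, the median difference was -0.40 against sample 228, -0.36 against sample 230 and -0.08 against sample 242, and the NPRA-/- mean was the lower in 184, 177 and 116 of 200. The deposited table gave medians of 0.01, 0.05 and 0.04. On the 75th percentile scale the difference from sample 242 was thus the smallest. The equal columns of the deposited table keep its medians small against every array.

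In limma's test over all 13015 probes, none of the 200 members passed a Benjamini-Hochberg adjusted p of 0.05, nor did any other probe (0% of all probes tested), and the lowest adjusted p was 0.0787. At an unadjusted p under 0.05, 68 members were called by limma (25.9% of all probes tested). Of these members, 2 were higher and 66 lower in NPRA-/-, against 1817 higher and 1559 lower among all probes tested. With at least 1.5-fold as well, 1 member was higher (4.83% of all) and 36 were lower (6.58% of all). With at least 2-fold, 0 members were higher (1.34% of all) and 18 were lower (2.78% of all). All 5 NPRA-/- arrays lay above all 3 NPRA+/+ arrays in 2 members (10.8% of all probes with a value on every array), and below them in 38 members (7.95% of all). The members' median difference was -0.30, with 173 of 200 negative, beside 0.04 over all probes tested.

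The split changed with the scaling. In the deposited table, 4 members were higher (2.36% of all) and 21 lower (3.29% of all) at an unadjusted p under 0.05 and 1.5-fold, 18 lay wholly above (11.8% of all) and 17 wholly below NPRA+/+ (6.9% of all), and the median was 0.06 with 86 of 200 negative. After quantile normalization of the processed signal, 5 were higher (4.99% of all) and 19 lower (6.32% of all), 31 lay wholly above (12.5% of all) and 15 wholly below (7.3% of all), and the median was 0.09 with 79 of 200 negative. The members wholly below, 8.5% and 7.5% of 200, were near the share of all probes on these scales. Lower members past 1.5-fold outnumbered higher ones on all 3 scales, which share the NPRA+/+ arrays that chose the members, so this count is a description.

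The count past the adjusted threshold moved with sample 240. Without it, limma called 43 members at an adjusted p under 0.05 (19.2% of all probes tested), 2 higher and 41 lower. Among all probes in that fit, 1292 were higher and 1212 lower. With array weights, where sample 240 received the lowest weight (0.328), limma called 78 (25.6% of all), 2 higher and 76 lower. Among all probes there, 1754 were higher and 1582 lower. Members stood at 21.5% and 39% in these fits, against 19.2% and 25.6% of all probes.

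Slide row, as read from the header barcodes, was nearly confounded with genotype, and the row that held both had a single NPRA-/- array. There, sample 241 against the 3 NPRA+/+ arrays gave 16 members at a limma adjusted p under 0.05 (5.54% of all), with that array assumed to vary like NPRA+/+. In the same row, 15 members of sample 241 lay above all NPRA+/+ arrays (42.2% of all) and 116 below them (30% of all). With 1 array against 3, these counts cannot be set beside those of 5 against 3.

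The 18 members that were at least 2-fold lower kept their direction on all 3 scales. They were picked for the size of that difference on these same arrays, so their kept direction is a description and no separate support. Their differences ran from -2.95 to -1.09 (limma adjusted p from 0.0787 to 0.141), all 18 were also lower in the deposited table and after quantile normalization, and 15 of them were still at least 2-fold lower in the deposited table. They came from rank 10 to rank 183 of the NPRA+/+ order. In 12 of them no NPRA-/- array reached the NPRA+/+ range, and in 13 the lowest arrays were samples 217, 231 and 241.

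The same 3 arrays were the farthest in most members without overlap. Of the 38 members that lay wholly below NPRA+/+, samples 217, 231 and 241 were the lowest in 35 and samples 231, 240 and 241 in 3. The NPRA-/- array nearest to NPRA+/+ was sample 240 in 25 and sample 227 in 13. Both members wholly above NPRA+/+ had samples 217, 231 and 241 as the highest.

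ASCRP4012476 had the lowest p among the lower members. Its relative log2 signal was 5.23, 5.96, 5.42, 6.02 and 5.49 on samples 217, 227, 231, 240 and 241, and 6.68, 6.56 and 6.52 on samples 228, 230 and 242. On this scale all NPRA-/- arrays lay below all NPRA+/+ arrays, by most in samples 217, 231 and 241. The difference was -0.96 (SE 0.19, limma adjusted p = 0.0787), or 1.94-fold, and -0.54 in the deposited table. The genotypes overlapped in the deposited table, with sample 240 (12.92) above sample 230 (12.88).

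ASCRP4005922 followed, at 5.92, 6.56, 6.24, 6.46 and 6.20 on samples 217, 227, 231, 240 and 241 and 7.0, 6.88 and 6.94 on samples 228, 230 and 242. The genotypes did not overlap on this scale. The difference was -0.66 (SE 0.15, limma adjusted p = 0.0787), but only -0.12 in the deposited table (limma adjusted p = 0.55). The genotypes overlapped there, with sample 231 (13.56) above samples 228 (13.37) and 230 (13.20).

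ASCRP4006395 was the sole member at least 1.5-fold higher at an unadjusted p under 0.05. It read 6.27, 5.83, 6.17, 5.33 and 6.12 on samples 217, 227, 231, 240 and 241, and 5.11, 4.96 and 4.80 on samples 228, 230 and 242. All NPRA-/- arrays lay above all NPRA+/+ arrays, sample 240 by the least. The difference was 0.99 (SE 0.21, limma adjusted p = 0.0787), or 1.98-fold, and 1.33 in the deposited table. It stood at ranks 139 to 162 in NPRA+/+ and 40 to 96 in NPRA-/-.

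ASCRP4002452, the other member without overlap on the higher side, was 5.72, 5.28, 5.51, 5.19 and 5.69 in NPRA-/- and 5.07, 5.12 and 5.06 in NPRA+/+, in the same order of samples. The gap between the groups was narrow, from 5.12 to 5.19. Its difference was 0.40 (SE 0.14, limma adjusted p = 0.134), or 1.32-fold, and 0.62 in the deposited table.

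The members that varied most between arrays were among the lower ones. ASCRP4002727, at rank 25, read 3.60, 6.58, 3.48, 6.67 and 3.65 on samples 217, 227, 231, 240 and 241 and 7.93, 7.94 and 7.29 on samples 228, 230 and 242. The NPRA-/- arrays fell into a low set (217, 231 and 241) and a set nearer to NPRA+/+ (227 and 240), and neither reached the NPRA+/+ range. The difference was -2.93 (SE 0.84, limma adjusted p = 0.0894), or 7.60-fold, and -2.57 in the deposited table.

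ASCRP4000591 showed the same split of the arrays, at 1.09, 3.64, 0.77, 3.86 and 1.07 in NPRA-/- and 5.24, 5.27 and 4.60 in NPRA+/+. Its rank went from 124, 130 and 179 on samples 228, 230 and 242 to 1877, 329, 2185, 280 and 1860 on samples 217, 227, 231, 240 and 241. It had the widest mean difference of the members, -2.95 (SE 0.77, limma adjusted p = 0.0797), or 7.74-fold, and -2.77 in the deposited table.

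ASCRP4014122 varied through 1 array. It read -1.70 on sample 217, where its processed signal was 32.8, against 4.73, 3.71, 4.34 and 4.12 on samples 227, 231, 240 and 241 and 5.05, 5.46 and 4.67 on samples 228, 230 and 242. The genotypes overlapped, since sample 227 lay above sample 242. The difference was -2.02 (SE 1.33, limma adjusted p = 0.362), and -0.84 without sample 217 (limma adjusted p = 0.163).

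Other members varied within NPRA+/+ as well. ASCRP4009404 spanned 7.51, 8.71 and 6.59 on samples 228, 230 and 242 and 5.77, 7.66, 4.57, 5.28 and 5.44 on the NPRA-/- arrays, so sample 227 lay within the NPRA+/+ range. ASCRP4009892 spanned 5.81, 7.08 and 4.99 in NPRA+/+ and 3.07, 5.34, 2.45, 3.31 and 3.04 in NPRA-/-, again with only sample 227 inside. Their differences were -1.86 (SE 0.69, limma adjusted p = 0.141) and -2.52 (SE 0.66, limma adjusted p = 0.0799). In both, sample 230 was the highest NPRA+/+ array and sample 242 the lowest.

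At the other end, ASCRP4003499 varied least on this scale, from 5.14 to 5.24 over all 8 arrays, with a mean of 5.20 ± 0.04 (SD, n = 5) for NPRA-/- against 5.18 ± 0.01 (SD, n = 3) for NPRA+/+. ASCRP4011359 ran from 4.67 to 4.83. Their genotype differences were 0.19 and 0.23 in the deposited table, so their steadiness belongs to the 75th percentile scale.

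Many members correlated closely with some of the named ones. Over the 8 arrays, the signal of 51 members correlated with that of ASCRP4002727 at r above 0.9, 47 with ASCRP4000591 and 41 with ASCRP4012476, while 36 correlated with ASCRP4006395 at r below -0.9. ASCRP4009404 and ASCRP4009892, in which sample 227 stayed near NPRA+/+, had 17 and 22 such members. ASCRP4003499 and ASCRP4011359 had 0. These points share the arrays, the genotype difference and the scaling, and the correlations are a description. Several of the named probes were picked for a wide spread or a low p. The same counts over all probes are not given, so a trait particular to the members cannot be read from them.

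The SD over NPRA-/- arrays was the larger one for most members. It rests on 5 arrays against 3, and the number of arrays by itself affects how often one SD exceeds the other. No genotype difference in variability is read from it. The median SD was 0.24 in NPRA-/- and 0.20 in NPRA+/+, and the NPRA-/- SD was the larger in 121 of 200 members (60.5%), below the 68.4% of all probes tested. Across the 200 members, pairs of NPRA+/+ arrays correlated at 0.968 on average (3 pairs), pairs of NPRA-/- arrays at 0.919 (10 pairs) and mixed pairs at 0.868 (15 pairs). Mixed pairs ranged from 0.762 to 0.975. Sample 227 correlated at 0.960 to 0.975 with NPRA+/+ arrays and at 0.888 to 0.946 with the other NPRA-/- arrays. The NPRA+/+ arrays also chose these probes.

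Among features that the rule did not use, the members were spread nearly evenly over array rows but not over probe ID numbers. In 4 equal blocks of the array's rows they numbered 50, 54, 46 and 50, close to even; columns of the array were not examined. In 4 equal blocks of the probe ID numbers they numbered 28, 57, 61 and 54, fewer in the first block, where probes at ranks 201 to 400 numbered 46. Of the members, 10 had another member at the next ID number, against 18 of the 200 probes at ranks 201 to 400. The number for a random set of probes was not computed.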

How the data were processed

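Members and lists were chosen with earlier results of these data known. Per the file headers, the deposited intensity values are a processed signal per spot (background-subtracted and detrended) and raw median brightness of spot and local background, from Agilent Feature Extraction 11.0.1.1. The deposited columns of spot marks (saturated, non-uniform, outlying, or well above background) are other values, coded yes or no. The authors' deposited log2 table correlated at 0.999 or above with log2 raw median brightness; its columns have nearly equal values at equal ranks, its medians are 5.84 (217), 5.84 (227), 5.84 (231), 5.86 (240), 5.85 (241), 5.84 (228), 5.84 (230) and 5.85 (242), probes were not centred, and the sources used here do not give its normalization method.

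Members and ranks came from that table. Shares were to be read from it too, but its equal columns nearly fix them, so processed signal is given beside it. For the genotype comparison, marked spots were removed and the 75th percentile of each array's log2 processed signal over non-control probes was subtracted. A probe was tested when well above background on at least 3 arrays and unmarked on at least 2 arrays of each genotype (13015 probes; 12990 with a value on all arrays). lmFit and eBayes of limma 3.58.1 (R 4.3.3), 2-sided, were run on all 8 arrays without covariates, with Benjamini-Hochberg adjustment over all tested probes. The script was tested on simulated data. Differences are NPRA-/- minus NPRA+/+. The number of arrays limits precision.

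Named members were the 10 brightest, ranks 198 to 203, the 2 higher and 2 lower with the lowest p at 1.5-fold (ASCRP4002452 filled in by p), and the 2 each with the highest SD, lowest SD, lowest NPRA-/- rank and widest NPRA+/+ range; ASCRP4004824 and ASCRP4009374 were chosen after their values were seen. Alternatives were the deposited table, normexp (offset 50), quantile normalization, other percentiles, filters, priors, weights, slide row or column, other choices of members, and leaving out each array. Added after seeing the data were the slide row alone, marked spots left out, ASCRP4009374 left out, and the NPRA+/+ array left out of the choice as the reference. Planned lists of host genes and cell type markers were not used, as probes are not paired with genes here.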

Additional observations from a re-analysis of the deposited data

Results flagged for a closer look

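Of 36 sets of NPRA-/- values examined, 6 held a sample that stood far from the others. For unselected, independent sets, chance alone sets apart about 1 in 20. These sets overlap, and some of their probes were named for a wide spread or a low rank, so the count cannot be weighed against that rate. NPRA-/- sample 217 stood apart in the lowest rank reached by a member (8319), which is the rank of ASCRP4014122, and in the relative log2 signal of that probe itself (-1.70). Sample 241 stood apart in the members' share of the deposited total (52.7%) and in that of the 10 brightest members (24.9%). Sample 227 stood apart in ASCRP4008132 (9.24, against 8.13 to 8.33 on the other NPRA-/- arrays). Sample 231 stood apart in ASCRP4011638 (4.28, against 4.51 to 4.59). Outside the members, ASCRP4009374 had a processed signal of 509951 on sample 241, above its level in the NPRA+/+ samples (71.9 to 83.8).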

How the results depend on the processing

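No paired analysis was possible because the genotypes share no replicate numbers. The members' median difference turned from -0.30 to 0.063 in the deposited table and 0.092 after quantile normalization, and moved to -0.083 against sample 242 alone; its other 24 alternatives stayed within the spread. Calls at an adjusted limma p under 0.05 (0) became 78 with array weights, 16 in the slide row with both genotypes and 0 to 43 with an array left out (43 without sample 240). Members lower by 1.5-fold (36) became 58 with array weights, 21 in the deposited table and 19 after quantile normalization. They became 23 with slide column as a covariate and 66 of the 400 brightest. With an array left out they were 26 to 56, 56 without sample 227. Over all 13015 probes the lower count was 857, and 1149, 428, 823 and 584 with array weights, deposited table, quantile normalization and slide column. With an array left out it was 704 to 1154, 1018 without sample 227. Members higher by 1.5-fold (1) became 4, 5 and 2 in the deposited table, after quantile normalization and with slide row as a covariate. Among members by both genotype means, by NPRA-/- mean, the 100 and the 400 brightest the count was 4, 5, 0 and 7. With an array left out the count was 1. Over all probes tested the higher count was 628, and 307, 650 and 759 in the deposited table, after quantile normalization and with slide row. With an array left out it was 485 to 963. Members wholly above NPRA+/+ (2) became 18, 31, 15, 5, 6, 0 and 9 under the deposited table, quantile normalization, the slide row alone, both genotype means, NPRA-/- mean, the 100 and the 400 brightest, and 2 to 4 with an array left out. Members wholly below (38) became 17, 15, 116, 23 and 68 under the deposited table, quantile normalization, the slide row alone, the 100 and the 400 brightest, and 38 to 99 with an array left out, 99 without sample 242. The slide row sets 1 array against 3, so its counts without overlap (15 and 116, beside 42.2% and 30% of all probes) are not comparable with those of 5 against 3. Of the 12990 probes with a value on every array, 1398 lay wholly above and 1033 wholly below NPRA+/+. With an array left out, 1467 to 2431 probes lay wholly above and 1071 to 1946 wholly below, 1448 without sample 242. Fewer arrays in a group make overlap less likely, so these counts rise for all probes too. The difference in members' share (-1.996 points) became -6.82 in the processed signal and -5.68 with marked spots left out. The share of members within an NPRA-/- array's own 200 (88.8%) became 92.8% for members by both genotype means. The cause was not tested. All members were well above background on all arrays.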
